A study of Mus musculus with 24 samples.

Results

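The glycolysis and hypoxia module is a set of 38 mouse genes for the uptake of glucose, its breakdown to lactate, and the response of cells to low oxygen. Its members were found by gene symbol among the 32285 features of a single-cell RNA-Seq data set of Panc02 tumors. *Aldoa* has a second feature row of the same symbol, at a mean of 0.506 CPM (UMIs of a gene per 1000000 UMIs of a gate and pool) in tumor cells, which left 39 rows for the 38 genes. Panc02 is a mouse pancreatic cancer cell line, here grown under the skin of male C57BL/6 mice. The mice received 1 of 8 treatments, which cross a vaccine, PancVAX, with 2 antibodies. The groups are Isotype Control, Anti-PD-1, Anti-CTLA-4, and Anti-PD-1 + Anti-CTLA-4, and each of these 4 with PancVAX (labeled PancVAX alone in the case of Isotype Control). The study describes the Isotype Control and PancVAX groups as given isotype antibodies. PancVAX is a vaccine of Panc02 neoantigen peptides given with AddaVax and a STING agonist on days 12 and 19, and PBS was given in its place, so that peptide and adjuvant effects cannot be told apart. Anti–PD-1 was given from day 12, anti–CTLA-4 on days 15 and 22, and tumors were harvested on day 38. The labels and the methods of the study both give these days, and a legend in the study gives other days for anti–CTLA-4 and for the harvest. Tumors were pooled by treatment, and each treatment has 1 whole-tumor library and 1 library prepared with Percoll, which enriches immune cells. The 2 libraries together are called its pool (n = 8 pools, 4 with each agent and 4 without). No source used here says whether the 2 were made from the same animals. The preparation was also the sequencing batch, and both cannot be told apart. No mouse is a replicate here, and the spread is that between pools of different treatments.

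Glucose enters cells through transporters such as those encoded by *Slc2a1* and *Slc2a3*, is cleaved to pyruvate by the enzymes of glycolysis, and leaves as lactate through the transporters of *Slc16a1* and *Slc16a3*. Under low oxygen the prolyl hydroxylases encoded by *Egln1* and *Egln3* lose activity, the transcription factor HIF-1α (*Hif1a*) is no longer degraded, and it induces most of the enzymes, *Vegfa*, *Car9*, and other targets. Its protein is set mainly by degradation, so that the RNA of *Hif1a* is a poor guide to its activity. In tumors, both tumor cells far from vessels and activated immune cells raise glycolysis, and *Hif1a* also acts in myeloid cells and T cells at normal oxygen.

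The sequence that HIF binds has the core ACGTG or GCGTG. Promoters of 300 bases, from 250 bases before to 50 bases after the start of the gene, were found for 35 of 38 members in RefSeq (build GRCm38.p6, with *Ero1l* under its newer name *Ero1a*). The letters ACGTG on either strand were present in 26 of these 35 promoters (74.3%), against 21.8% of the promoters of all 27025 genes. The letters GCGTG were present in 24 (68.6%), against 35.2% of all genes, and 33 members (94.3%) held at least one of them, against 46.7%. Some genes have more than 1 promoter, up to 3 for *Aldoa*, *Eno1*, and *Kdm3a*. The number per gene and the base composition were not matched between members and all genes. The members include genes listed as targets of HIF, so that these shares are a description and no test. The 5 promoters below are shown because their genes carry the differences between cell types, with each ACGTG, on either strand, in capitals. Of the 2 promoters of *Ldha*, the one with most ACGTG is shown. A CACGTG holds the letters on both strands and counts as 2 matches.

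Car9 (chr4:43506776-43507075, + strand, 1 match): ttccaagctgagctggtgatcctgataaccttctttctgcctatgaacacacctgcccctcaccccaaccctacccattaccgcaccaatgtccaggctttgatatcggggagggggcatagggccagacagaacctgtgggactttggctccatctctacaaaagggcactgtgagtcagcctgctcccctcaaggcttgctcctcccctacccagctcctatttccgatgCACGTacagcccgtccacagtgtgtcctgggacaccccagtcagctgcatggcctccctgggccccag
Ldha (chr7:46845554-46845853, + strand, 5 matches): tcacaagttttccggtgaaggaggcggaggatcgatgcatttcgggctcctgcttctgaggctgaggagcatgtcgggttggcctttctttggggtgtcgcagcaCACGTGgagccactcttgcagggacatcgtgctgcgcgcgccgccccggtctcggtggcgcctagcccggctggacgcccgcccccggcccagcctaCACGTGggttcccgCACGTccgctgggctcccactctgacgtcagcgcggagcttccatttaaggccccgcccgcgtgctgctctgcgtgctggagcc
Pgk1 (chrX:106186850-106187149, + strand, 2 matches): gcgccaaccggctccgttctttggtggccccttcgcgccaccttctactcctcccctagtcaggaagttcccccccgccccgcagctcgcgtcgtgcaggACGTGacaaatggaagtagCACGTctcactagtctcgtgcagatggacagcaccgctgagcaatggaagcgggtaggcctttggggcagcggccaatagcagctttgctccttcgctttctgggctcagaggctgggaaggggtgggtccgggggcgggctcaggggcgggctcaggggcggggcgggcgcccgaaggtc
Slc16a3 (chr11:120948817-120949116, + strand, 2 matches): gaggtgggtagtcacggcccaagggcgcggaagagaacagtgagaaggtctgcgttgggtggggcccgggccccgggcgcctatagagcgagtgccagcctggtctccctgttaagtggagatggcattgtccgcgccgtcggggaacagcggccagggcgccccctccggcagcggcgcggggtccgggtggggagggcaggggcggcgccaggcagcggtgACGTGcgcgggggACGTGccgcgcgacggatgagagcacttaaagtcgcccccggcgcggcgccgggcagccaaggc
Tpi1 (chr6:124814109-124814408, - strand, no match): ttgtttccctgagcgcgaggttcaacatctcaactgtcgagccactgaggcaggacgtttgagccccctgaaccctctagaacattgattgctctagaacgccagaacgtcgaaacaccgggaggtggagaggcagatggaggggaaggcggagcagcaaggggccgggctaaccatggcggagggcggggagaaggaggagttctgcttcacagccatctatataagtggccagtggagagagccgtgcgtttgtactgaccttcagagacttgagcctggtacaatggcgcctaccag

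*Car9*, *Ldha*, *Pgk1*, and *Slc16a3* held the letters within these windows, and *Tpi1* held neither core. A match is a description of the letters, and no binding was measured.

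Of 144994 barcodes in 16 libraries of 77132398–176233225 UMIs, 57355 (39.6%) passed the limits of the study (200–3000 genes and 1000–10000 UMIs per cell, with a mitochondrial share below 10% and no hemoglobin transcripts). Cells were assigned to 5 gates by marker genes, none of which is a member. The gates held 4904 tumor cells by *Krt8*, *Krt18*, *Krt19*, and *Epcam*, 1936 stromal cells by collagens, *Dcn*, *Prelp*, and *Ogn*, 13705 macrophages by *C1qa* and others, 7660 neutrophils, and 9804 CD8+ T cells. Marker lists held out of the gates summed highest in their own gate for all 5, with 202 CPM for the tumor list in the tumor gate and 106 CPM in the stromal gate. Of the tumor list *Msln* (133 CPM), *Krt7*, and *Cldn7* were highest in the tumor gate. *Cdh1* was higher in stromal cells (9.07 CPM) and CD8+ T cells (22.1 CPM) than in tumor cells. The held-out stromal gene *Sox9* was at 562 CPM in tumor and 622 CPM in stromal cells. In the tumor gate the epithelial genes *Epcam*, *Cdh1*, and *Cldn4* were low at 10.5, 6.96, and 0.071 CPM, held-out stromal genes summed to 2141 CPM against 5554 CPM in the stromal gate, and *Krt18* was at 1720 CPM in the tumor gate and 318 CPM in the stromal gate, so that tumor and stromal gates overlapped in these markers. *Krt18* was at 20.8 CPM in CD8+ T cells, 31.3 CPM in macrophages, and 81.2 CPM in neutrophils. The upper limits of the study removed most large cells. They kept 13.6% of tumor cells and 31.2% of stromal cells that passed the other limits, against 71.5% of macrophages, 89.3% of CD8+ T cells, and 98.1% of neutrophils. Without upper limits the tumor gate held 35933 cells, and the calls in tumor and stromal cells that this changed are given. The Percoll library of PancVAX + Anti-PD-1 stood apart, with 963 tumor cells and, without upper limits, a median of 10799 UMIs per tumor cell. Any 2 libraries shared at most 2.43% of their barcodes.

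Each gate was compared with the mean of the other 4 gates (edgeR quasi-likelihood test on UMIs summed by library and gate, with the library as a block), and a gene was called at a Benjamini-Hochberg adjusted *P* below 0.05 over all 12355 genes tested and an absolute log2 fold change above 0.5. All 38 members were tested. Tumor cells had 23 members higher (60.5%) and 6 lower (15.8%), against 29.9% and 28.6% of all genes. Neutrophils had 18 higher (47.4%) and 9 lower (23.7%), against 26.7% and 35.2% of all genes. In stromal cells 8 were higher (21.1%) and 18 lower (47.4%), against 31.1% and 25.7%. In CD8+ T cells 6 were higher (15.8%) and 18 lower (47.4%), against 27.8% and 32.2%. In macrophages 7 were higher (18.4%) and 10 lower (26.3%), against 27.4% and 25.6%, close to the background in the lower direction, and without upper limits 4 were higher (3688 of all 14478 genes tested). In sums of UMIs, fewer cells with a transcript and less RNA per cell cannot be told apart. Fold changes are relative to the fitted scaling between gates, so that gates can rank otherwise by fold change than by CPM. Without upper limits tumor cells had 22 members higher and 6 lower (4617 and 4019 of all 14478 genes tested), and stromal cells had 8 higher and 15 lower (4544 and 3344). The tumor call lost was *Egln1*. In stromal cells *Ldha* (−0.47), *Mif* (−0.45), *Pgam1* (−0.37), *Vegfa* (0.48), and *Egln3* (0.08, from −1.39) were no longer called, and *Slc2a3* (−1.70) and *Ddit4* (0.68) were.

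**Figure D1:**
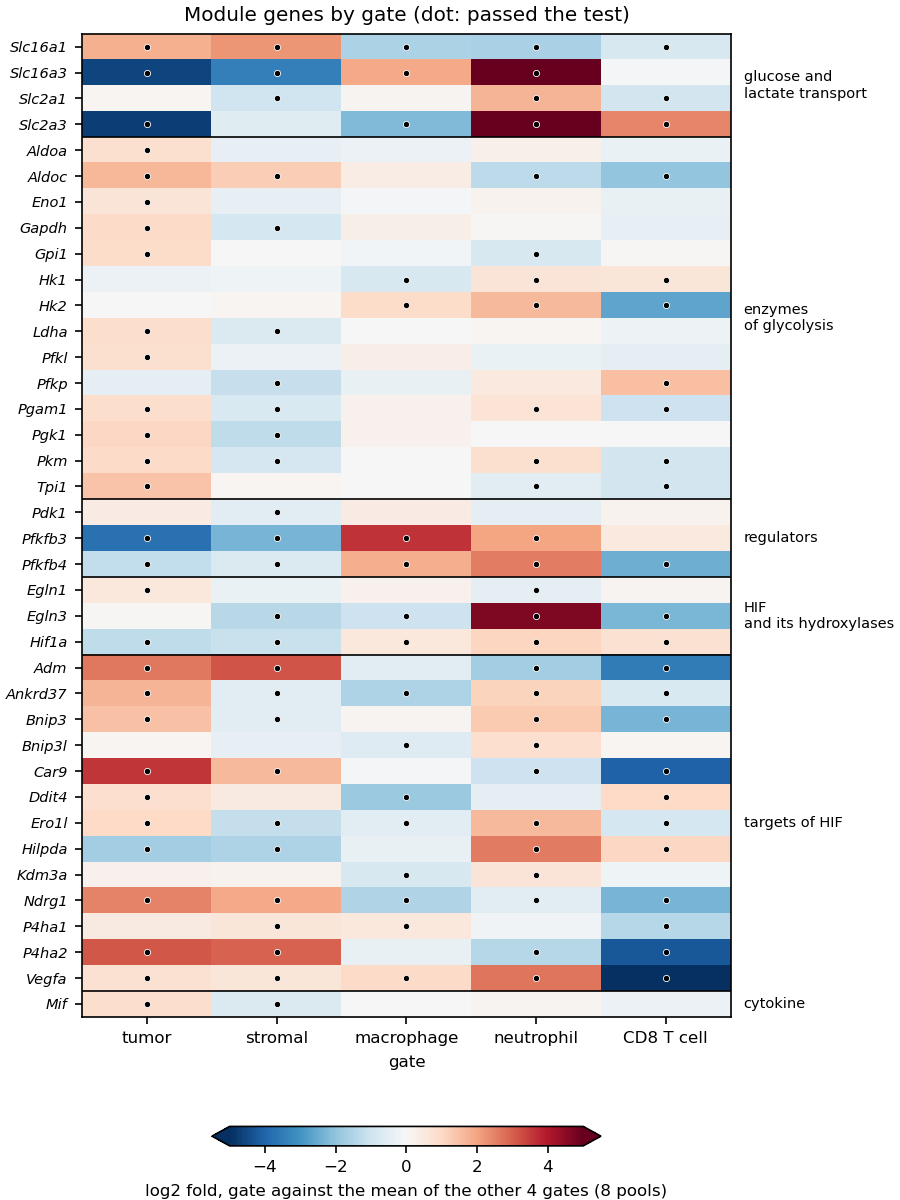
Log2 fold change of the 38 members in each gate against the mean of the other 4 gates, with rows in order of role and columns in order of gate. Red is higher, blue is lower, colors saturate at 5, and a dot marks the 123 of 190 values that passed the test. In the tumor column 11 of 14 enzymes are red with a dot, and *Hk1* and *Pfkp* are blue without one. *Slc16a3*, *Slc2a3*, and *Egln3* are the darkest cells of the neutrophil column.

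Most enzymes of glycolysis were higher in tumor cells. Of 14 enzymes, 11 were higher there and none was lower (29.9% and 28.6% of all genes), with a median log2 fold change of 0.87 over the 14 against −0.01 over all genes. Their UMIs summed to 9574 ± 1085 CPM (SD, n = 8 pools) in tumor cells, 5067 ± 121 in neutrophils, 4898 ± 908 in stromal cells, 4708 ± 341 in macrophages, and 4101 ± 304 in CD8+ T cells. Without upper limits the sum in tumor cells was 10328 ± 867 CPM. The lowest tumor pool (6984 CPM) lay above every pool of the other gates, of which the highest was a stromal pool at 6188 CPM. *Tpi1*, the triosephosphate isomerase, had the largest tumor rise among the enzymes after *Aldoc* (log2 fold change 1.42 ± 0.05 SE), with 687–864 CPM over the 8 tumor pools and at most 546 CPM in any pool of another gate. *Pgk1*, which makes the first ATP of the pathway, was at 322–656 CPM in tumor pools, and each of them was above the highest pool of another gate (320 CPM). *Ldha*, which turns pyruvate into lactate, was at 1015–1430 CPM in tumor pools, and all other gates lay between 490 and 806 CPM. The 3 enzymes not called in tumor cells were *Hk1*, *Hk2*, and *Pfkp*. They act in early steps of the pathway, and each was highest in an immune gate. *Gpi1* (726 CPM) and *Pfkl* (81.7 CPM), which also act in early steps, were highest in tumor cells.

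*Hk2*, the inducible hexokinase, was at 93.5 ± 17 CPM in neutrophils, 65.1 ± 7.0 in macrophages, 60.4 ± 24 in stromal cells, 51.1 ± 17 in tumor cells, and 10.0 ± 3.4 in CD8+ T cells. Its fold change in CD8+ T cells was −2.64 ± 0.11 (SE) on the log2 scale, and no CD8 pool (6.31–15.3 CPM) reached the lowest pool of another gate (23.7 CPM). The other gates overlapped one another. CD8+ T cells had *Hk1*, the constitutive hexokinase, at 46.7 ± 2.6 CPM (log2 fold change 0.62 ± 0.06) and *Pfkp*, the platelet form of phosphofructokinase, at 131 ± 11 CPM (1.5 ± 0.05). The lowest CD8 pool of *Pfkp* (117 CPM) was above the highest pool of any other gate (80.5 CPM). For *Hk1*, pools of CD8+ T cells, neutrophils, and stromal cells overlapped. *Gapdh*, *Pgk1*, *Eno1*, *Ldha*, *Aldoa*, and *Mif* have near-identical pseudogenes or copies in the genome, to which counting can lose reads, so that their levels are uncertain, and whether the loss is equal between gates was not tested.

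Among the transporters, *Slc16a3* encodes the lactate exporter MCT4. It was at 426–599 CPM in the 8 neutrophil pools, 39.1–53.1 in macrophages, 14.1–21.8 in CD8+ T cells, 0–14.5 in stromal cells, and 0.26–5.22 in tumor cells. No 2 neighbors in this order overlapped, except stromal and tumor cells and, at its upper end of 14.5 CPM, 1 stromal pool with CD8+ T cells. Its log2 fold change in neutrophils was 6.19 ± 0.09 (SE), and in tumor cells it was −4.61 ± 0.27. *Slc16a1*, which encodes the transporter MCT1, was higher in stromal and tumor cells than in the immune gates. It was at 59.9–106 CPM in stromal and 43.8–64.7 CPM in tumor pools, and no immune pool exceeded 15.8 CPM (log2 fold change 2.19 ± 0.10 in stromal and 1.79 ± 0.09 in tumor cells). *Slc2a3*, the high-affinity glucose transporter GLUT3, was at 59.2–118 CPM in neutrophils, 18.6–25.7 in CD8+ T cells, and at most 2.33 in macrophages and 0.768 in tumor cells. In 7 of the 8 stromal pools it was at 0–1.93 CPM, and in the PancVAX pool it was at 66.8 CPM. *Slc2a1* (GLUT1) was at 118–156 CPM in neutrophils and overlapped among tumor cells, macrophages, and stromal cells (23.6–93.8 CPM), and in CD8+ T cells it was at 24.0–45.9 CPM.

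**Figure D2:**
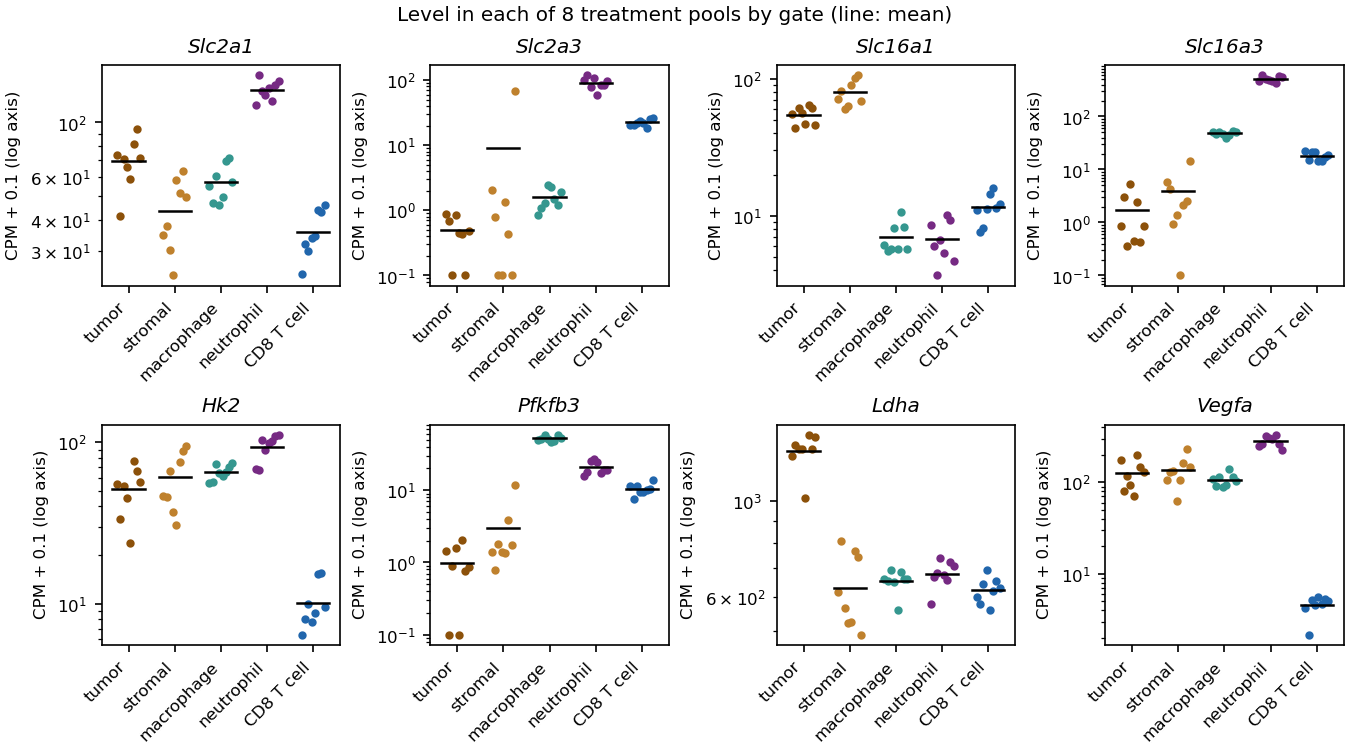
CPM plus 0.1 on log axes for 8 members, with a point for each of the 8 pools and a line at the mean of each gate. *Slc2a3* and *Slc16a3* are highest in neutrophils, *Slc16a1* in stromal and tumor cells, *Ldha* in tumor cells, and *Hk2* and *Vegfa* are lowest in CD8+ T cells.

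Among the regulators, *Pfkfb3* and *Pfkfb4* encode enzymes whose product activates phosphofructokinase. *Pfkfb3* marked macrophages, at 47.1–58.9 CPM over the 8 pools, above neutrophils (15.8–27.0), CD8+ T cells (7.52–13.6), stromal cells (0.684–11.6), and tumor cells (0–1.98). Its log2 fold change in macrophages was 3.61 ± 0.09 (SE). *Pfkfb4* was at 23.8–44.0 CPM in neutrophils and 19.9–25.4 CPM in macrophages, with overlap, and below both elsewhere. *Pdk1*, which encodes a kinase that inhibits pyruvate dehydrogenase, passed the test only in stromal cells, where it was lower (−0.53 ± 0.11). In tumor cells and macrophages its fold changes of 0.41 and 0.40 were under the limit of size.

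*Hif1a* was lower in tumor cells (63.4 ± 9.4 CPM, log2 fold change −1.27) and stromal cells (80.1 ± 13 CPM, −1.12) and higher in macrophages (139 ± 19 CPM, 0.54), CD8+ T cells (173 ± 23 CPM, 0.76), and neutrophils (187 ± 15 CPM, 1.09). All tumor and stromal pools (at most 96.9 CPM) were below all immune pools (at least 118 CPM). The hydroxylase gene *Egln3*, itself a target of HIF, was at 65.6–114 CPM in neutrophils and at most 15.6 CPM in any pool of another gate (log2 fold change 4.65 ± 0.13). *Egln1* was higher in tumor cells, at 36.0 ± 8.4 CPM (0.54 ± 0.08), and its tumor pools (25.4–48.8 CPM) overlapped those of stromal cells (17.7–34.2 CPM). It was not called without upper limits (0.33).

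Of the 13 targets of HIF, 9 were higher in tumor cells, 6 in stromal cells, and 7 in neutrophils, and *Ankrd37*, *Bnip3*, *Ero1l*, and *Vegfa* were higher in both tumor cells and neutrophils. Of all genes 29.9% were higher in tumor cells, 31.1% in stromal cells, and 26.7% in neutrophils. *Car9*, an enzyme on the cell surface that hydrates CO2 to bicarbonate and protons, was at 52.3–116 CPM in tumor pools, 22.5–103 in stromal pools, and at most 13.9 CPM in any immune pool, and it was higher in tumor cells (log2 fold change 3.56 ± 0.12). *Ndrg1* (288 ± 86 CPM in tumor and 240 ± 70 in stromal cells), *P4ha2*, a collagen prolyl hydroxylase (21.6 ± 6.1 and 23.0 ± 7.3 CPM), and *Adm*, the peptide adrenomedullin (12.9 ± 2.7 and 24.6 ± 19 CPM), were higher in both of these gates. Tumor and stromal pools overlapped for all 3. In neutrophils, *Vegfa* was at 224–333 CPM, above all pools of macrophages (89.5–138), tumor cells (71.5–200), and CD8+ T cells (2.05–5.42), and 1 stromal pool at 234 CPM reached this range. *Hilpda*, a lipid droplet protein that inhibits lipolysis, was at 467–813 CPM in neutrophils and 199–403 CPM in CD8+ T cells, above tumor cells (32.7–97.2 CPM), where it was lower (−1.72 ± 0.13). *Bnip3* and *Bnip3l* act in removal of mitochondria. *Bnip3* was higher in tumor cells (1.47) and neutrophils (1.32), and *Bnip3l* in neutrophils (0.85). *P4ha1*, another collagen prolyl hydroxylase, was higher in stromal cells (89.1 ± 26 CPM, 0.62) and macrophages (56.9 ± 2.7 CPM, 0.52) and lower in CD8+ T cells (−1.41). Its call in macrophages was lost without upper limits (0.41). In tumor cells *P4ha1* was at 68.9 CPM, above macrophages, with a change under the limit of size. *Kdm3a*, a histone demethylase, was higher in neutrophils (34.8 ± 5.3 CPM, 0.63) and lower in macrophages (15.6 ± 2.7 CPM, −0.81). By CPM the mean of *Kdm3a* was highest in stromal cells (40.3 CPM). CD8+ T cells had 9 targets lower and 2 higher, *Ddit4* (1.00), an inhibitor of mTORC1, and *Hilpda* (1.02). Of all genes 32.2% were lower there and 27.8% higher. *Vegfa* at −5.01 ± 0.16 had the largest fall of the targets in CD8+ T cells. *Mif*, a cytokine induced by HIF, was higher in tumor cells at 1390 ± 235 CPM (0.87), and lower in stromal cells at 667 ± 139 CPM (−0.73, and −0.45 without upper limits, where it was not called). CD8+ T cells had the lowest mean of *Mif* by CPM (651 CPM), with a change under the limit of size.

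Of 43 other genes of the pathway, 32 were tested between gates. In tumor cells 14 were higher and 6 lower, in stromal cells 14 and 9, in macrophages 9 and 9, in neutrophils 11 and 13, and in CD8+ T cells 4 and 13. Shares of all genes were 29.9% and 28.6% in tumor cells, 31.1% and 25.7% in stromal cells, and 27.4% and 25.6% in macrophages. In neutrophils they were 26.7% and 35.2%, and in CD8+ T cells 27.8% and 32.2%. Dissociation and heat-shock genes also differed between gates, with 7 of 11 higher in tumor and 6 of 11 in stromal cells, and their part in the module was not tested. Without upper limits 18 of the 123 calls between gates were lost and 8 were gained. Of the lost calls 1 changed sign, *Egln3* in stromal cells, from −1.39 to 0.078, and *Slc16a3* was gained in CD8+ T cells (0.89).

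The question of the design was which treatments changed the cells. With PancVAX, 3 of 178 tests of members over the 5 gates were called in a fit with the antibodies as covariates (edgeR, 8 pools), and 44 had an unadjusted *P* below 0.05. In CD8+ T cells 2 of 35 members were called (5.71%), against 12.4% of all 10816 genes. An unadjusted *P* below 0.05 was found there for 14 members and 3916 of all genes. In stromal cells 1 of 34 was called (2.94%), against 0.321% of all genes, and 9 members and 1266 of all 9649 genes had that *P*. No member was called in tumor cells (0 of 35, background 0.0191%, 7 at an unadjusted *P* below 0.05), macrophages (0 of 38, background 0.312%, 10 at that *P*), or neutrophils (0 of 36, background 0.164%, 4 at that *P*), and DESeq2 called none in these 3 gates. Of all genes, 1139 of 10480 in tumor cells, 1728 of 11554 in macrophages, and 653 of 8514 in neutrophils had that *P*.

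*Hilpda* fell in CD8+ T cells with PancVAX. It was at 403, 376, 330, and 285 CPM with Anti-CTLA-4, Anti-PD-1, both antibodies, and Isotype Control, and at 267, 238, 254, and 199 CPM in the same order with PancVAX added. All 4 pools with PancVAX were below all 4 without it (log2 fold change −0.62 ± 0.10 SE, adjusted *P* = 0.00199 by edgeR). The fall was under the limit of size without upper limits (−0.47, adjusted *P* = 0.00319) and in whole-tumor libraries alone (−0.40). *Hk2* was at 6.31, 7.98, 9.90, and 7.62 CPM without PancVAX and at 8.71, 15.2, 15.3, and 9.40 CPM with it, in the same order (0.53 ± 0.16, adjusted *P* = 0.0205 by edgeR). The 2 groups overlapped for *Hk2*, and each PancVAX pool was above its partner without PancVAX. *Hk2* also had a log2 fold change of 0.61 ± 0.16 with anti–PD-1, which was not called. The call of *Hk2* with PancVAX was lost in 8 of 17 alternatives, among them no upper limits (0.32), stricter gates (0.28), DESeq2 (0.52), and leaving out the pool of Anti-PD-1 (0.41), of PancVAX + Anti-PD-1 (0.50), or of all 3 agents (0.48). *Hif1a* (0.26), *Slc2a1* (0.41), *Mif* (−0.31), *Pgk1* (−0.28), and *Pgam1* (−0.25) had an adjusted *P* below 0.05 and fold changes under the limit of size. Of the other pathway genes, *Plod1* (1.27) and *Wsb1* (0.97) rose and *Plod2* (−0.89) and *Fam162a* (−0.55) fell. The dissociation genes *Atf3* (0.52) and *Ier2* (0.72) rose beside them, and their part was not tested.

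The mixture of CD8+ T cells differed between pools. Cells with at least 2 UMIs of the checkpoint genes *Pdcd1*, *Havcr2*, *Lag3*, *Tigit*, and *Entpd1* were 47.95–55.9% of the gate in the 4 pools with PancVAX and 75.09–81.55% in the 4 without, and cells with no UMI of these genes were compared as a second part. Checkpoint cells had 10 of 33 members higher (30.3%) and 2 lower (6.06%) than cells without, against 8.28% and 7.68% of all genes. *Slc16a3* was at 17.8–28.8 CPM in checkpoint cells and 1.74–8.44 CPM in the others (log2 fold change 2.05 ± 0.22 SE), and *Hilpda* was at 264.5–470 against 22.0–129.5 CPM (2.04 ± 0.35). Neither pair of ranges overlapped. *Tpi1* (0.94), *Slc2a3* (0.91), *Bnip3* (0.84), *Hif1a* (0.68), *Ndrg1* (0.66), *Aldoa* (0.63), *Ankrd37* (0.61), and *Pgam1* (0.52) were also higher, and *Pdk1* (−0.94) and *Slc16a1* (−0.60) were lower. Checkpoint cells were deeper, with a median of 4475 UMIs against 3105, and had 6 of 11 dissociation genes lower. The part of both was not tested. Without upper limits 17 of 36 members were higher and 1 was lower, against 1145 and 1138 of all 10658 genes tested, and 3 of 5 cell cycle genes were higher (median 0.99), none of which was called by edgeR under the limits.

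Within the 2 parts *Hilpda* had opposite signs with PancVAX. In cells without checkpoint RNA it was at 57.6, 28.6, 36.8, and 22.0 CPM without PancVAX and at 113, 124, 129.5, and 104.7 CPM with it, in the order of antibodies above (1.51 ± 0.18, adjusted *P* = 3.24e-08 by edgeR). The lowest PancVAX pool was above the highest pool without it. In checkpoint cells *Hilpda* was at 465, 470, 378, and 336 CPM without and 369, 307, 321.5, and 264.5 CPM with PancVAX, and its fold change of −0.47 ± 0.13 (adjusted *P* = 0.0452 by edgeR) was under the limit of size. The difference between the parts was not tested, and effects of PancVAX within the parts were not fitted without upper limits. In total 6 of 30 members were called in cells without checkpoint RNA (20%), against 9.96% of all genes. *Hif1a* (57.2–84.1 without and 129–178 CPM with PancVAX, 0.86 ± 0.14), *Slc2a1* (13.2–25.9 and 34.9–43.2 CPM, 0.86 ± 0.24), and *Ddit4* (50.6–77.1 and 111–156 CPM, 0.78 ± 0.14) rose with *Hilpda*, and none of these ranges overlapped. *Pdk1* (24.5–46.3 and 15.1–22.7 CPM, −1.10 ± 0.24) and *Mif* (635–901 and 540–618 CPM, −0.55 ± 0.09) fell. Of the other pathway genes *Bhlhe40* (1.77), *Mxi1* (1.76), *Wsb1* (1.04), and *Ccng2* (0.72) rose and *Fam162a* (−0.51) fell. The dissociation genes *Atf3* (1.32) and *Egr1* (0.62) rose beside them. In checkpoint cells 3 of 35 members were called (8.57%), against 9.15% of all genes. Beside them *Plod1* (1.28) and *Wsb1* (0.89) rose and *Plod2* (−0.50) fell. The dissociation gene *Ier2* (0.66) and the cell cycle gene *Cdk1* (0.55) also rose. *Slc16a1* was at 6.40–10.4 CPM without and 11.9–14.6 CPM with PancVAX (0.61 ± 0.18), *Hk2* at 6.40–9.80 and 9.28–16.7 CPM (0.60 ± 0.18), and *Aldoc* at 6.79–8.61 and 4.28–6.43 CPM (−0.63 ± 0.21). None of these 3 was called in all 10 alternatives, and the count fell to 0 without the pool of Anti-PD-1, of PancVAX + Anti-PD-1, or of all 3 agents.

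**Figure D3:**
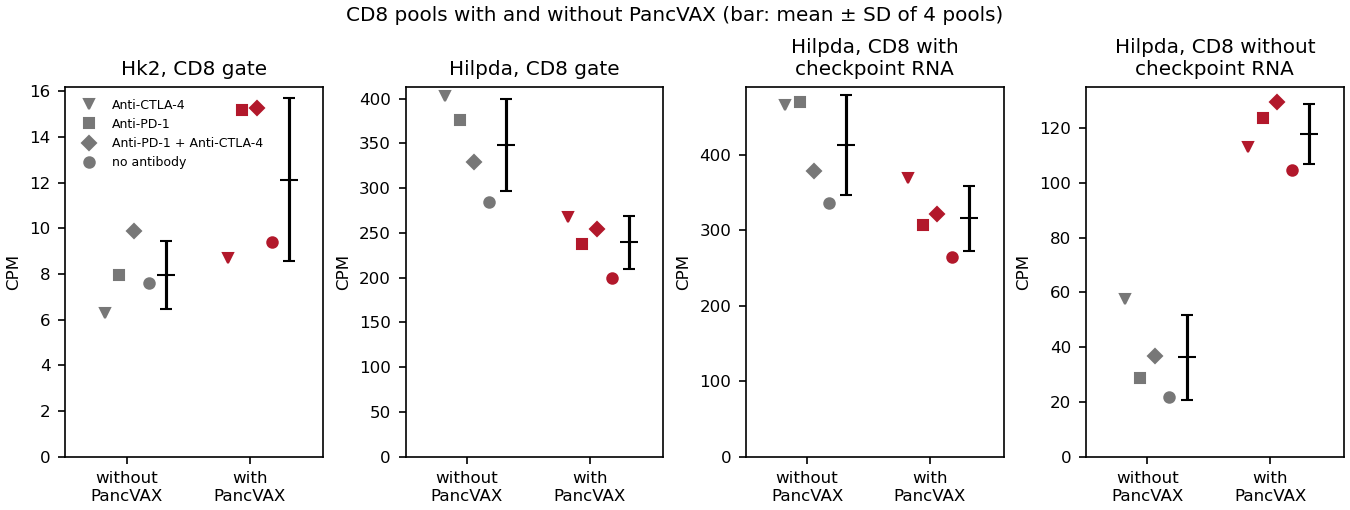
CPM of *Hk2* in the CD8 gate and of *Hilpda* in the CD8 gate and in its 2 parts, with a symbol for each antibody treatment, gray without and red with PancVAX, and bars for the mean ± SD of 4 pools. The symbol labeled no antibody stands for the Isotype Control and PancVAX pools, which the study describes as given isotype antibodies. *Hilpda* is lower with PancVAX in the whole gate and higher with it in cells without checkpoint RNA, where the pools are at 22.0–57.6 and 104.7–129.5 CPM.

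The stromal call was *Ankrd37*, an ankyrin repeat protein induced by hypoxia. It was at 25.0, 78.7, 28.2, and 27.6 CPM with Anti-CTLA-4, Anti-PD-1, both antibodies, and Isotype Control, and at 16.5, 23.2, 18.1, and 16.0 CPM in the same order with PancVAX (−1.20 ± 0.25, adjusted *P* = 0.0493 by edgeR). The groups did not overlap, and the Anti-PD-1 pool was far above the rest. Of 11 dissociation genes *Atf3* rose beside it (0.74, adjusted *P* = 0.0140 by edgeR), and none was called without upper limits (4 at an unadjusted *P* below 0.05, against 1798 of all 13253 genes). Their part was not tested. The call was lost without upper limits (−0.80, adjusted *P* = 0.353), in DESeq2 (−1.12), and without the pool of Anti-PD-1 (−0.70, adjusted *P* = 0.313 by edgeR). It was kept in 6 of 18 alternatives. In macrophages *Hilpda* was at 90.8–110 CPM without and 124–157 CPM with PancVAX, without overlap, and its change of 0.38 ± 0.06 (adjusted *P* = 0.0178 by edgeR) was under the limit of size. Without upper limits it was 0.48 with an adjusted *P* of 0.404 by edgeR.

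Effects of PancVAX were then compared between gates. Over 10 pairs of gates 0 of 380 tests of members were called by edgeR, against 1.34% of all tests, and 44 had an unadjusted *P* below 0.05. Of all 13058 genes tested in each pair, 805–2124 had such a *P*. DESeq2 was not run for this comparison. The nearest were *Bnip3l* in stromal minus CD8+ T cells (−0.49 ± 0.14, adjusted *P* = 0.0435 by edgeR, under the limit of size) and *Hilpda* in macrophages minus CD8+ T cells (0.96 ± 0.30, adjusted *P* = 0.0620). Without upper limits *Hilpda* was called in 2 pairs, macrophages minus CD8+ T cells (0.95 ± 0.21, adjusted *P* = 0.00801 by edgeR) and stromal minus CD8+ T cells (0.93 ± 0.21, adjusted *P* = 0.0112), an alternative chosen after seeing the data. Of all 15211 genes, 440 and 394 were called in these 2 pairs. With no filter on low counts other members were also called between gates, as given below.

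No member was called with anti–PD-1 in 178 tests by edgeR, and 23 had an unadjusted *P* below 0.05. The backgrounds were 0.00954% of genes in tumor cells, 0.819% in stromal cells, 0.00866% in macrophages, 0.141% in neutrophils, and 0% in CD8+ T cells. In stromal cells lay 14 of the 23, where 30 of 34 members had positive fold changes with a median of 0.38 (all genes 0.01). There 722 of all 9649 genes had an unadjusted *P* below 0.05. Without upper limits 25 of 38 members were positive, with a median of 0.12 (all genes 0.02). Of these 38, 11 had an unadjusted *P* below 0.05, as had 1999 of all 13253 genes. The lowest adjusted *P* was 0.0793 for *Vegfa*, which was at 63.0, 105, 145, and 106 CPM in Isotype Control, Anti-CTLA-4, PancVAX, and PancVAX + Anti-CTLA-4, and at 130, 133, 163, and 234 CPM in the same order with anti–PD-1 (0.64 ± 0.16). The groups overlapped, and each pool was above its partner without anti–PD-1. DESeq2 called 1 member in stromal cells and none in the other gates. With no filter on low counts, edgeR called members in stromal cells and neutrophils, as given below. No member was called with anti–CTLA-4 in 178 tests (background 0.0191% in tumor cells and 0% in the other 4 gates), 11 had an unadjusted *P* below 0.05, and DESeq2 called none. Of all genes, between 319 of 9649 (stromal cells) and 889 of 10480 (tumor cells) had such a *P* in a gate. The smallest adjusted *P* with anti–CTLA-4 was 0.511, and fold changes of tested members ran from −1.41 (macrophages) to 0.44 (stromal cells). These values are with the filter on low counts, and without it members were called in stromal and tumor cells, as given below.

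One pool stood apart in tumor cells. In PancVAX + Anti-CTLA-4, 24 of 35 tested members were at their lowest among the 8 pools, and without upper limits 26 of 35 were. The share of all genes at their lowest in this pool was not counted, here or in the other gates. A shift of the module therefore cannot be told apart from a shift of the whole pool. The enzymes summed to 7057 CPM in its whole-tumor library, where the other 7 libraries were at 9179–12296 CPM, and to 6855 CPM in its Percoll library, where the other 7 were at 8350–10485 CPM. Targets of HIF summed to 929 and 880 CPM in these libraries, against 1067–1865 and 1321–1682 CPM in the others. The same pool was lowest in both preparations without upper limits, at 8271 and 8413 CPM for enzymes and 969 and 1190 CPM for targets. *Bnip3* was at 62.4 CPM in this pool and 174–221 CPM in the other 7, and *Pgk1* was at 322 CPM against 545–656 CPM. Cells with a UMI of *Car9* were 16.63% of its tumor gate, and 21.38–28.76% in the other pools. Without upper limits they were 43.95% there, 44.63% in PancVAX + Anti-PD-1, and 49.03–53.82% in the rest. Its tumor cells had medians of 5508 and 6744 UMIs per cell in libraries that ranged from 5041 to 7039, and the part of depth was not tested. In macrophages it held the lowest value for 18 of 38 members, in CD8+ T cells for 14 of 35, and in stromal cells for 10 of 34. In neutrophils it did so for 10 of 36, fewer than the Anti-CTLA-4 pool with 12 (9 and 14 without upper limits). Dissociation genes summed to 9605 and 15677 CPM in its 2 libraries, the latter the highest of the 16, and their part was not tested. With 1 pool per treatment there is no replicate of this combination, and no test was made.

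**Figure D4:**
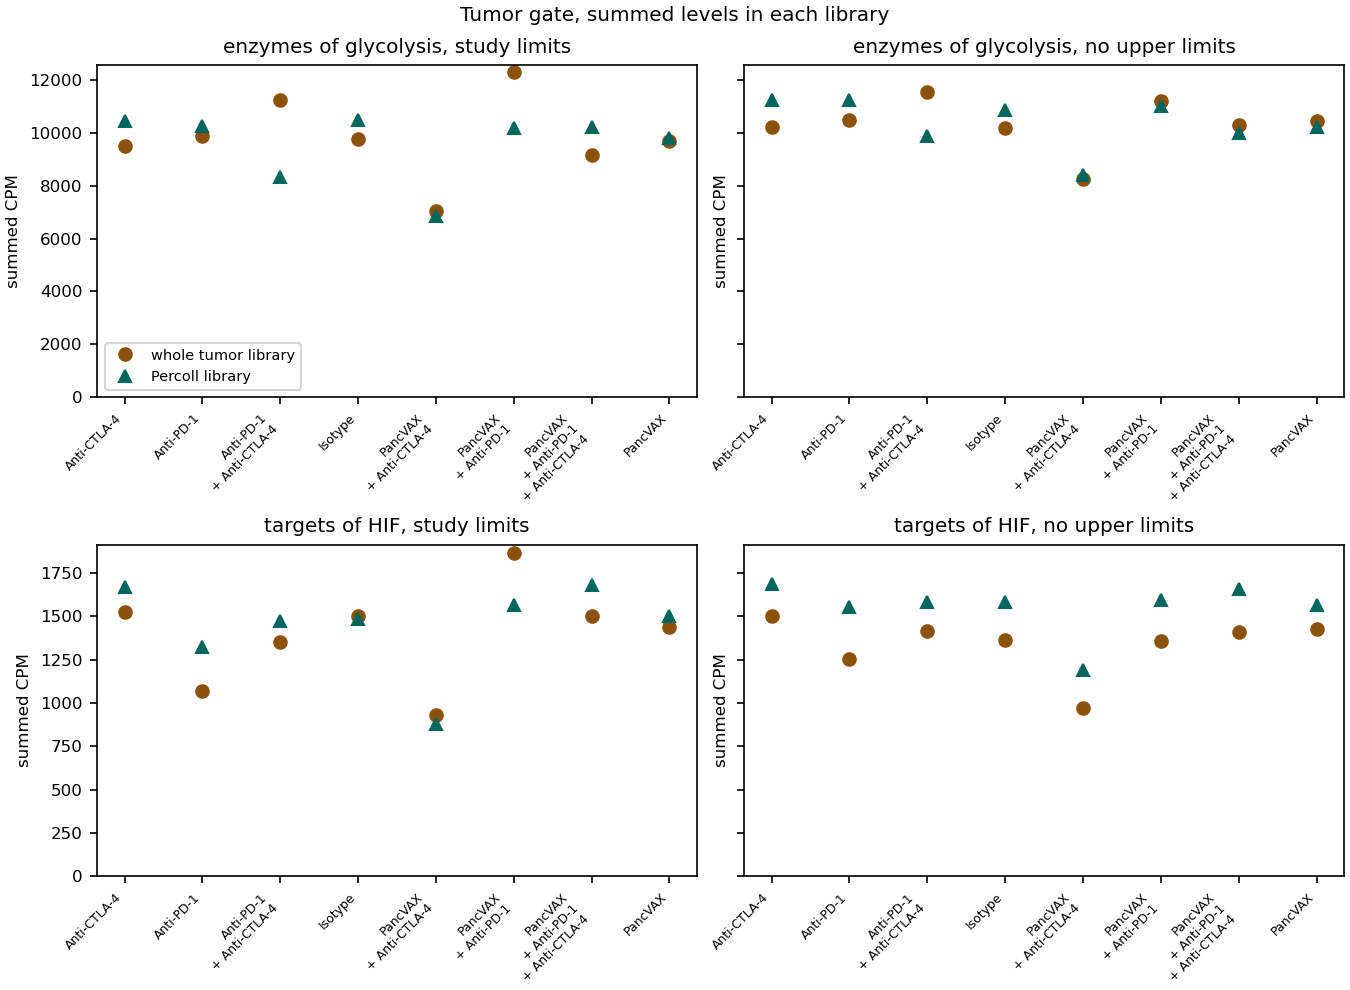
Summed CPM of the 14 enzymes (15 rows) and of the 13 targets of HIF in tumor cells, for each of the 16 libraries, with circles for whole-tumor and triangles for Percoll libraries, under the limits of the study and without upper limits. PancVAX + Anti-CTLA-4 is the lowest column in all 4 panels, at 6855–8413 CPM for enzymes.

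Tumor cells also differed within each pool. The split of the gate into 1247 cells with a UMI of *Car9* and 3657 without was chosen after seeing the data. Of 34 other members tested, 30 were higher in *Car9*+ cells (88.2%) and none was lower, against 3.79% and 4.84% of all genes. *Ero1l*, an oxidase for disulfide bonds of the endoplasmic reticulum, was at 130–319 CPM in *Car9*+ cells and 21.2–74.2 CPM in the rest (log2 fold change 2.46 ± 0.22 SE). *Ankrd37* was at 71.8–275 against 27.8–51.6 CPM (2.20 ± 0.12), and *Bnip3* at 144–485 against 42.9–121 CPM (2.02 ± 0.07). The ranges did not overlap for any of the 3. *P4ha2* (2.18), *Egln3* (1.85), and *Adm* (1.68) were also among the higher members. All 14 enzymes were higher, from *Eno1* (0.52 ± 0.06) to *Pgk1* (1.25 ± 0.06), with *Ldha* at 1360–1946 against 932–1262 CPM. *Hif1a*, *Slc16a1*, *Pfkfb4*, and *Ddit4* were not called. *Slc16a1* was at 43.1–73.5 against 40.6–65.2 CPM. Of the other pathway genes, 8 of 27 were higher and none was lower, and 5 of 5 cell cycle genes were lower, with a median log2 fold change of −1.02. Without upper limits none of the 5 was called by edgeR, with a median of −0.10, and 8 of 35 other pathway genes were higher and 1 was lower. *Car9*+ cells were deeper (median 7039 against 5274 UMIs), which a split on 1 UMI can favor, and the part of depth was not tested. Held-out markers of macrophages, neutrophils, and CD8+ T cells summed to 58.8, 9.78, and 15.2 CPM in *Car9*+ cells and 71.6, 30.1, and 19.1 CPM in the rest. Without upper limits *Hk1* and *Hk2* were no longer called and the other 28 calls were kept. Of 11 dissociation genes 1 was called, *Hspa1a*, which was lower (−4.13), and 8 had an unadjusted *P* below 0.05 by edgeR, as had 3484 of all 10000 genes. Without upper limits none of the 11 was called, and their part was not tested.

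Neutrophils with *Siglecf*, a marker of neutrophils that have matured within tumors, were compared with those with *Retnlg*, a marker of recently arrived neutrophils, and no *Siglecf*. Of 31 members tested, 19 were lower in *Siglecf*+ cells (61.3%, background 20.7%) and 2 were higher (6.45%, background 21.1%). *Slc16a3* was at 207–355 CPM in *Siglecf*+ and 884–1410 CPM in *Retnlg*+ neutrophils (−2.39 ± 0.12), and *Slc2a3* at 50.4–95.3 and 130–292 CPM (−1.67 ± 0.14), without overlap. *Pfkp* (−1.60), *Ddit4* (−1.48), *Bnip3* (−1.21), *Slc2a1* (−1.17), *Pgk1* (−1.10), and *Pkm* (−0.97) were among the others that were lower. *Hk2* went the other way, at 83.7–139 against 24.4–60.1 CPM (0.96 ± 0.17), as did *Vegfa* at 295–474 against 109–190 CPM (0.76 ± 0.10), and again the ranges did not overlap. These fold changes are relative to the fitted scaling between the parts, and log2 ratios of CPM lay above them by a median of 0.417. By CPM 20 members were lower and 11 were higher, and every called member had the same sign on both scales. *Siglecf*+ cells had a median of 1854 UMIs and *Retnlg*+ cells 1478, and 4 of 9 dissociation genes were lower and 1 was higher. Without upper limits 15 of 34 members were lower and 3 were higher, against 990 and 822 of all 6504 genes tested. No regulator was then called, nor *Hif1a* or a hydroxylase gene, and 2 of 5 cell cycle genes were lower.

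Macrophages with at least 2 UMIs of the monocyte genes *Ly6c2*, *Ccr2*, and *Plac8* were compared with those with none and at least 1% of UMIs from C1q genes. Of 35 members, 12 were higher in monocytic cells (34.3%, background 10.2%) and none was lower (background 5.41%). *Egln3* was at 4.602–13.9 against 0.719–3.29 CPM (2.33 ± 0.28), *Ndrg1* at 34.9–104 against 10.7–14.1 CPM (2.06 ± 0.21), and *Slc16a1* at 5.96–19.6 against 2.09–5.78 CPM (1.23 ± 0.20). None of these ranges overlapped. *Ankrd37* (1.08), *Slc16a3* (0.89), *Ddit4* (0.79), *Pfkp* (0.77), *Hilpda* (0.67), *Vegfa* (0.66), *Hif1a* (0.65), *Ero1l* (0.52), and *Hk1* (0.51) were also higher. Without upper limits *Slc16a3* and *Hif1a* were at −0.014 and −0.010, and *Pfkp* (0.33), *Vegfa* (0.38), *Hilpda* (0.28), and *Hk1* (0.46) were no longer called. *Pfkfb3* (−0.83) and *Pfkfb4* (−0.53) were then lower and *Car9* (1.33), *Adm* (1.46), and *P4ha2* (1.52) were higher, the last 2 of which were not tested under the limits, for 9 members higher and 2 lower in all (2505 and 1618 of all 12407 genes), and no enzyme was called by edgeR. Monocytic cells were deeper (median 5466 against 4070 UMIs), and held-out stromal genes summed to 205 against 52.4 CPM and neutrophil genes to 195 against 109 CPM. Of 11 dissociation genes, *Egr1* was higher (0.61), and without upper limits 4 were higher and 1 was lower. The part of these was not tested.

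**Figure D5:**
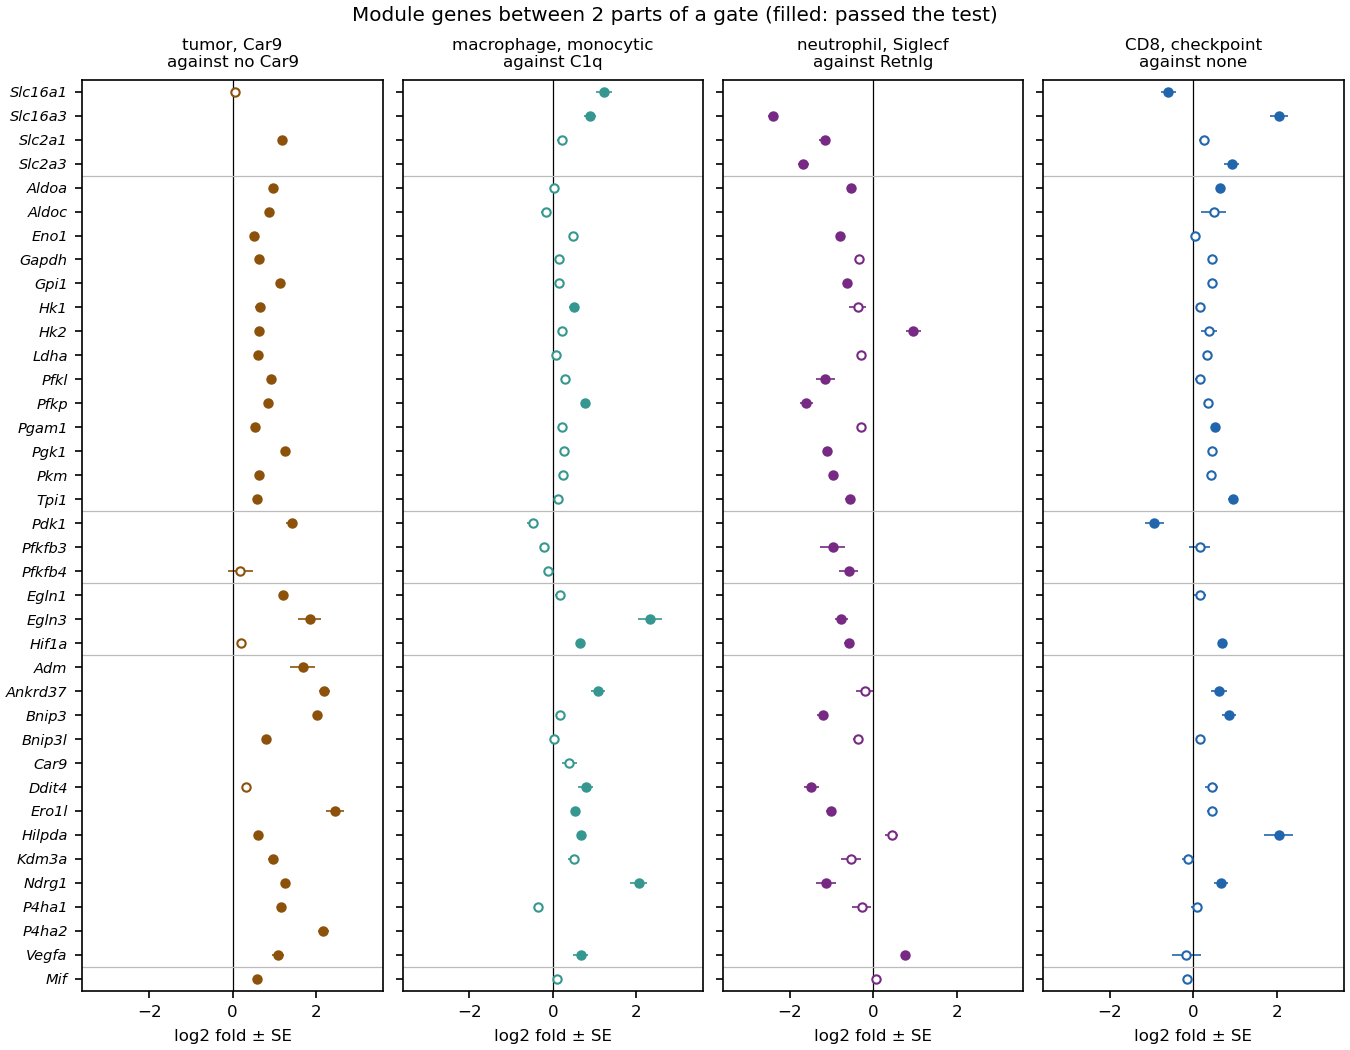
Log2 fold change ± SE of each member between 2 parts of a gate, for tumor cells, macrophages, neutrophils, and CD8+ T cells, with filled points for those that passed the test and members in the same order as by gate. Members lie to the right in *Car9*+ tumor cells (30 of 34 filled) and mostly to the left in *Siglecf*+ neutrophils (27 of 31, with *Hk2*, *Vegfa*, *Hilpda*, and *Mif* to the right). In checkpoint CD8+ T cells they lie mostly to the right (28 of 33).

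The 2 preparations differed in 9 of 174 tests of members (edgeR, 8 pairs of libraries, treatment as a block). In tumor cells 2 of 35 were called (background 2.92%), in stromal cells 2 of 33 (1.87%), in macrophages 3 of 38 (4.24%), in CD8+ T cells 2 of 34 (6.03%), and in neutrophils 0 of 34 (11.3%, with 8 at an unadjusted *P* below 0.05). Such a *P* was found for 2297 of all 7345 genes in neutrophils. *Eno1* was lower in Percoll libraries of tumor cells (617 ± 64 and 410 ± 127 CPM, SD, n = 8 libraries each, log2 fold change −0.69) in 8 of 8 pairs and of CD8+ T cells (301 ± 27 and 212 ± 46 CPM, −0.53) in 7 of 8. Its fold changes were −0.48 in neutrophils, −0.31 in stromal cells, and −0.29 in macrophages. *Hilpda* was higher with Percoll in stromal cells (65.9 ± 13 and 119 ± 41 CPM, 0.87) and macrophages (102 ± 24 and 145 ± 25 CPM, 0.58), in 8 of 8 pairs each. *Slc2a1* (0.51) and *Vegfa* (0.72) were higher in macrophages in 8 of 8 pairs. *Egln1* was lower in tumor cells (−0.53, 8 of 8 pairs) and *Slc16a1* in stromal cells (−0.56, 7 of 8), and *Pfkfb4* was higher in CD8+ T cells (1.26, 7 of 8 pairs, from 1.28 ± 0.67 to 3.06 ± 1.3 CPM). Without upper limits 3 of the 9 calls were kept, *Eno1* in tumor cells (−0.65), *Vegfa* in macrophages (0.64), and *Pfkfb4* in CD8+ T cells (1.18). The others were under the limit of size, with *Hilpda* at 0.34 in stromal cells and 0.496 in macrophages, *Slc16a1* at −0.33 in stromal cells, *Egln1* at −0.17 in tumor cells, *Slc2a1* at 0.43 in macrophages, and *Eno1* at −0.497 in CD8+ T cells. Calls gained were *Pfkfb4* (0.71) and *Slc16a3* (0.66) in tumor cells, *Slc2a1* (0.502), *Slc2a3* (1.12), and *Egln3* (0.52) in stromal cells, and *Adm* (0.74) in macrophages. Dissociation and heat-shock genes were higher beside these results, 8 of 11 in CD8+ T cells, 5 in macrophages, and 1 each in tumor and stromal cells, with 2 higher and 3 lower in neutrophils. Their part was not tested, and the preparation cannot be told apart from the sequencing batch.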

How the data were processed

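Single cells of Panc02 tumors were profiled by 10x 5′ RNA-Seq in 16 libraries, and 8 T cell receptor samples were not used. Per the labels and methods, the authors aligned reads to mm10 with Cell Ranger 4.0.0 and deposited matrices of raw UMI counts per gene and barcode. The members and lists were chosen with earlier results of these data known, and the split of tumor cells by *Car9* was chosen after seeing the data.

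Barcodes were filtered by the limits of the study, genes in fewer than 3 barcodes were dropped, and doublets were limited by leaving out cells with markers of a second lineage. A gate needed at least 3 marker UMIs (5 for macrophages and neutrophils) and 3 times those of every other lineage. UMIs were summed by gate and pool for treatments and for parts of a gate (pool as a block), and by gate and library for gates (library as a block) and preparations (treatment as a block). Sums were tested with TMM factors and the edgeR 4.0.16 quasi-likelihood test in R 4.3.3, with Benjamini-Hochberg adjustment over all genes tested (adjusted *P* below 0.05 and absolute log2 fold change above 0.5). CPM are counts over the total of the gate. *P* values measure the spread between pools or between libraries, which are not known to be separate mice, and the fit of gates treats the 2 libraries of a pool as separate. DESeq2 1.42.0 was an alternative, as were other filters, gates, factors, and libraries left out. The rule was to give a member with its values where it passed the test and otherwise by counts. Where over 10 members passed, the text gives those with the largest changes or distinct roles and counts the rest, a choice made after their values were seen. Other pathway genes were named where called with PancVAX. On simulated counts with 200 genes changed 2-fold, the PancVAX fit recovered 78% in tumor cells, 59% in stromal cells, 85.5% in macrophages, 76% in neutrophils, and 79.5% in CD8+ T cells, with 15, 12, 9, 22, and 7 false calls. Gates held as few as 30 stromal and 118 tumor cells in a library, which limits the precision of low members there.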

Additional observations from a re-analysis of the deposited data

Results flagged for a closer look

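Groups of 4 to 8 pools were searched for a pool far from the others, relative to the range of the group. Not every member in every gate was searched, and the high stromal *Slc2a3* value of the PancVAX pool given above is not among those flagged. Of 92 groups, 17 held one, where chance gives about 1 in 20, and the groups are not independent because genes and sums share pools. In tumor cells the PancVAX + Anti-CTLA-4 pool was far below the other 7 for the sum of the enzymes (6984 CPM) and for *Aldoa* (1053 CPM), *Gpi1* (421 CPM), *Ldha* (1015 CPM), *Pgk1* (322 CPM), *Pkm* (964 CPM), *Tpi1* (687 CPM), *Pdk1* (14.6 CPM), *Ankrd37* (37.3 CPM), *Bnip3* (62.4 CPM), and *Car9* (52.3 CPM). The same pool was far below the others for the sum of the regulators in tumor cells (20.2 CPM, next 26.7 CPM) and for the sum of the enzymes in macrophages (3985 CPM, next 4583 CPM). The sum of the regulators in CD8+ T cells had the PancVAX pool at 33.1 CPM. In stromal cells *Adm* was at 65.4 CPM in the PancVAX pool, where the next was at 31.6 CPM, and targets of HIF summed to 1496 CPM in the pool of all 3 agents. Among the 4 stromal pools without PancVAX, *Ankrd37* was at 78.7 CPM in the Anti-PD-1 pool.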

How the results depend on the processing

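Members called with PancVAX were 2 in CD8+ T cells, and 4 with 16 libraries and preparation as a covariate, 1 in DESeq2, 1 in Percoll libraries, 0 without upper limits, and 0 in whole-tumor libraries. In stromal cells the 1 call became 2 with 16 libraries, 4 with no filter on low counts, and 0 in DESeq2, in Percoll libraries, without upper limits (also in whole-tumor libraries alone), and with stricter gates. Counts of 0 became 1 in macrophages (stricter gates) and in tumor cells 1 (16 libraries) or 3 (no filter). With no filter, anti–PD-1 had 9 calls in stromal cells and 1 in neutrophils, anti–CTLA-4 had 1 each in stromal and tumor cells, and the differences between gates had 14 (2 without upper limits). Shares of all genes with no filter are not given, so that these counts cannot be set against a background. Anti–PD-1 in stromal cells had 1 call in DESeq2 and 1 in whole-tumor libraries. For Percoll, CD8+ T cells had 1 call in DESeq2, without the treatment block, and without upper limits. Stromal cells had 1 in DESeq2, 1 without the block, and 0 with stricter gates, tumor cells 1 without the block and 1 with stricter gates, and neutrophils 1 with stricter gates. Macrophages had 4 members higher than the other gates without upper limits. Checkpoint cells had 17 higher and 1 lower without upper limits and 0 lower with stricter gates. Monocytic macrophages had 1 lower with no filter and 2 without upper limits. The cause was not tested.

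Reversed log2 fold changes were those of stromal *Aldoc* with stricter gates (−0.048) and, without upper limits, of stromal *Egln3* (0.078) and monocytic *Slc16a3* (−0.014) and *Hif1a* (−0.010). With 1 pool left out, counts with PancVAX ran over 2–3 in CD8+ T cells, 0–3 in checkpoint cells, 4–7 in cells without checkpoint RNA, 0–2 in stromal cells, and 0–0 in the other gates. Those with anti–PD-1 ran over 0–1 in neutrophils, 0–2 in stromal cells, and 0–0 elsewhere, and those with anti–CTLA-4 over 0–0. Percoll counts ran over 0–3 in CD8+ T cells and neutrophils, 2–3 in macrophages, and 1–3 in stromal and tumor cells. Gate counts, higher then lower, ran over 22–23 and 6–7 (tumor), 7–8 and 15–20 (stromal), 6–7 and 9–10 (macrophages), 18–19 and 6–10 (neutrophils), and 6–7 and 18–19 (CD8+ T cells). Differences between gates ran over 0–1. Counts for parts ran over 9–11 and 1–2 (CD8+ T cells), 9–14 and 0–1 (macrophages), 2–3 and 17–19 (neutrophils), and 29–30 and 0–0 (tumor). With other factors the median of all genes moved in stromal cells from 0.022 to 0.117 (DESeq2). Of values for single members, 1652 between gates kept their call and 68 lost it, 992 and 48 between parts, 97 and 45 with PancVAX, and 107 and 22 with Percoll.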
